A study of Mus musculus with 7 samples.

Results

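The muscle ubiquitin ligases described here are 10 genes, Trim63, Fbxo32, Fbxo30, Fbxo21, Fbxo31, Fbxo40, Nedd4, Nedd4l, Cblb and Asb2, taken by symbol from the 48795 gene rows of a read count table. All 10 had a row, and all 10 passed the filter on low counts, beside 14002 genes in all. RNA was sequenced from tibialis anterior (TA) muscle, a fast muscle of the lower hindlimb, of 6-month-old mice that lack miR-486 (KO, 4 libraries) or carry it (WT, 3 libraries). The KO animals carry a germline deletion of the miR-486 hairpin, which lies within the gene Ank1, so every cell of the animal lacks it. Their genotype is labelled miR-486-/- and their strain FVB N/J, and the WT libraries are labelled wildtype and C57BL/6. The methods of the study describe a backcross of the KO line to C57BL/6J, while the column names of the WT counts carry FVB. By the labels, genotype and strain cannot be told apart. The methods give male mice, and neither source names a treatment. The labels do not say that each library is a separate animal, and the p-values therefore speak only of how far these libraries spread. In whole muscle, fewer cells of a type and less RNA per cell cannot be told apart.

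Ubiquitin ligases choose which proteins are tagged with ubiquitin, and many tagged proteins are then degraded by the proteasome. RING ligases such as Trim63 and Cblb bring a ubiquitin-loaded enzyme to the substrate, F-box proteins recruit substrates to a cullin scaffold, and HECT ligases such as Nedd4 carry the ubiquitin themselves before handing it on. Trim63 (MuRF1) and Fbxo32 (atrogin-1) are known as the ligases of muscle wasting, because their mRNAs rise in fasted, denervated and unloaded muscle. FoxO transcription factors and the glucocorticoid receptor are known to drive both, and Akt signalling restrains them.

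Each library held 23839577 to 28168275 counts over genes. WT 3 stood apart from the other 6 libraries. Its score on the first principal component, which held 53.9% of the variance, was 80.2, while those of the others were between -25.6 and -0.319. Mitochondrially encoded genes took 15.8 to 17.9% of gene counts in KO, against 13.3% in WT 1, 13.03% in WT 2 and 22.4% in WT 3. Reads without a unique alignment were 27.1 to 30.3% in KO, against 24.7%, 24.4% and 34.3% in WT 1, WT 2 and WT 3. The hairpin row held 0 counts in all 4 KO libraries and 1, 1 and 0 counts in WT, so it could not serve as a check of the genotype. Ank1 was at 258 ± 13.1 CPM in KO (SD, n = 4) and 277 ± 18.8 CPM in WT (SD, n = 3) and did not pass (edgeR adjusted p 0.637). CPM are counts scaled to a common library size, with TMM factors applied. All 10 muscle fibre markers were measured, each at 581 CPM or more in every library, and their summed level was 130240 to 151030 CPM in KO and 143310 to 164370 CPM in WT.

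With all 7 libraries, 1 of the 10 ligases passed the test, Nedd4l, which fell in KO muscle. None rose. By edgeR's quasi-likelihood test with Benjamini-Hochberg adjustment over 14002 genes, 2.81% of all genes passed in either direction, 1.85% as lower in KO and 0.964% as higher. At an unadjusted p below 0.05 there were 4 ligases, Nedd4l, Fbxo31, Fbxo21 and Fbxo40, beside 20.2% of all genes. KO and WT libraries did not overlap for 3 of the 10, Fbxo31 and Fbxo21 (higher in KO) and Nedd4l (lower in KO). Over all genes, 22.4% did not overlap. The fitted log2 fold change, KO over WT, was above 0 for 8 ligases and below 0 for 2, with a median of 0.33 over the 10 and -0.02 over all genes tested. Without WT 3 it was above 0 for 6 and below 0 for 4, with a median of 0.05 over the 10 and 0.01 over all genes. Leaving out WT 3 left 2 ligases past the threshold, Nedd4l (lower) and Fbxo31 (higher), beside 12.7% of genes in either direction.

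**Figure D1:**
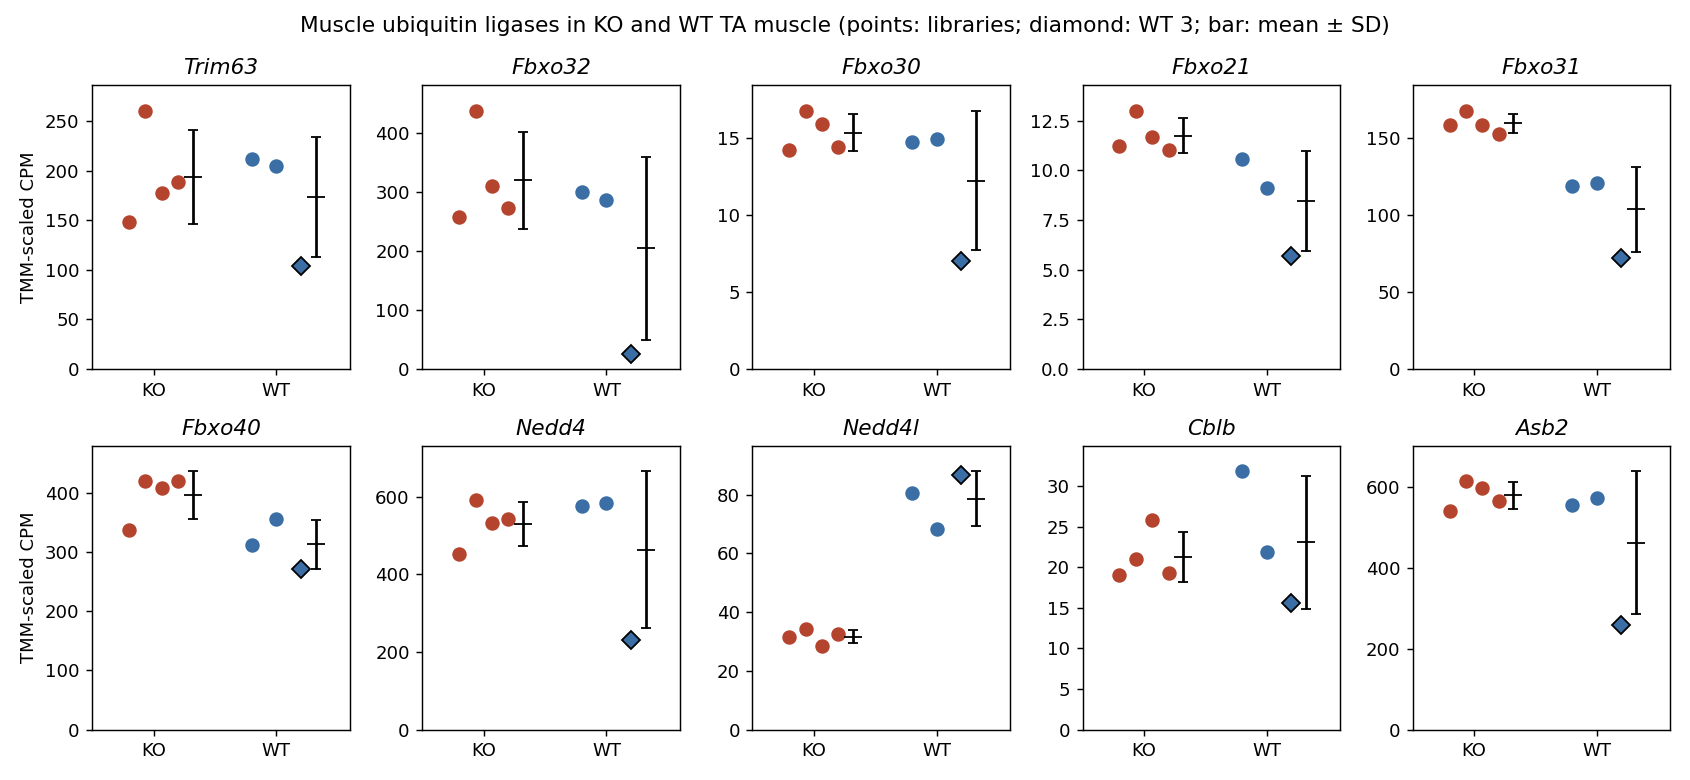
TMM-scaled CPM of the 10 ligases in each library, KO to the left of WT, with a panel and a linear axis from 0 for each gene. Points are libraries, the diamond is WT 3, and the bar is the mean ± SD. For Nedd4l the KO libraries sit between 28.6 and 34.2 CPM, all below the WT libraries, and for 9 of the 10 genes the diamond is the lowest point.

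Levels of different genes were compared as CPM per kilobase of exon, using the summed exon length of each gene in the GENCODE M21 annotation. Averaged over the 7 libraries, Asb2 stood first at 149.5 CPM per kb, which was rank 203 of the 14002 genes tested. It was followed by Fbxo40 (65.3), Trim63 (65.1), Nedd4 (45.7), Fbxo32 (38.7) and Fbxo31 (24.7 CPM per kb). The remaining ligases were far lower, with Nedd4l at 2.93, Fbxo30 at 2.70, Cblb at 2.11 and Fbxo21 at 1.86 CPM per kb, and the last of them at rank 7663. Within the KO libraries, Asb2 (153 to 174 CPM per kb) lay above all the others. Fbxo40 (61.0 to 76.1) and Trim63 (52.1 to 91.6) overlapped, as did Trim63 with Nedd4 (41.3 to 53.8) and Nedd4 with Fbxo32 (36.9 to 62.7 CPM per kb). Fbxo31 followed without overlap at 27.9 to 30.6 CPM per kb. At the low end, Nedd4l had 1.62 to 1.94 CPM per kb in KO, so that it lay below Fbxo30 (2.74 to 3.23) and Fbxo21 (1.99 to 2.34) there, although its mean over all libraries was above theirs. That order rests on the length used, 17659 summed exon bases for Nedd4l, 5197 for Fbxo30 and 5545 for Fbxo21. Not scaled for length, their KO means were 31.7, 15.3 and 11.7 CPM.

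Nedd4l (Nedd4-2, ENSMUSG00000024589.15) encodes a HECT ligase known above all for removing sodium channels and other membrane proteins from the cell surface. The gene lies at chr18:64887705-65217828 on the plus strand of GRCm38. It had 31.4, 34.2, 28.6 and 32.4 CPM in the KO libraries, against 80.7, 68.3 and 86.6 CPM in WT. Every KO library was below every WT library, and the groups were far apart compared with the spread within either. The underlying counts were 836, 861, 766 and 788 in KO and 2365, 1820 and 2105 in WT. Mean levels were 31.7 ± 2.34 CPM in KO (SD, n = 4) and 78.5 ± 9.33 CPM in WT (SD, n = 3). On the log2 scale the difference, KO minus WT, was -1.31 (SE 0.12, 95% interval -1.59 to -1.03, edgeR adjusted p 0.00661). The fitted level in KO was 40.3% of that in WT. Nedd4l was the one ligase not lowest in WT 3, where it was at 116% of the mean of WT 1 and WT 2. Without WT 3 the difference was -1.23 (SE 0.09, 95% interval -1.44 to -1.02, edgeR adjusted p 5.95e-05), and leaving out any other single library gave -1.39 to -1.27, with adjusted p-values up to 0.0418. An antisense gene, A330084C13Rik, shares 277 exon bases with Nedd4l and was not analysed here.

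Nedd4, the paralog and founding member of the family, is known to rise in denervated muscle and acts on growth factor and Notch signalling. It had 453, 590.2, 532 and 544 CPM in KO, against 576, 583 and 230.0 CPM in WT. WT 1 and WT 2 lay inside the KO range, while WT 3 was below all other libraries. Its log2 fold change was 0.19 (SE 0.30, 95% interval -0.49 to 0.88, edgeR adjusted p 0.733), and -0.12 without WT 3 (95% interval -0.36 to 0.11). The ratio of Nedd4 to Nedd4l CPM, taken within each library and not scaled for length, was 14.4, 17.3, 18.6 and 16.8 in KO and 7.14, 8.53 and 2.66 in WT. All KO ratios were above all WT ratios, and the ratio in WT 3 combined a low Nedd4 with a high Nedd4l. The difference between the genotype effects on the pair was not tested.

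**Figure D2:**
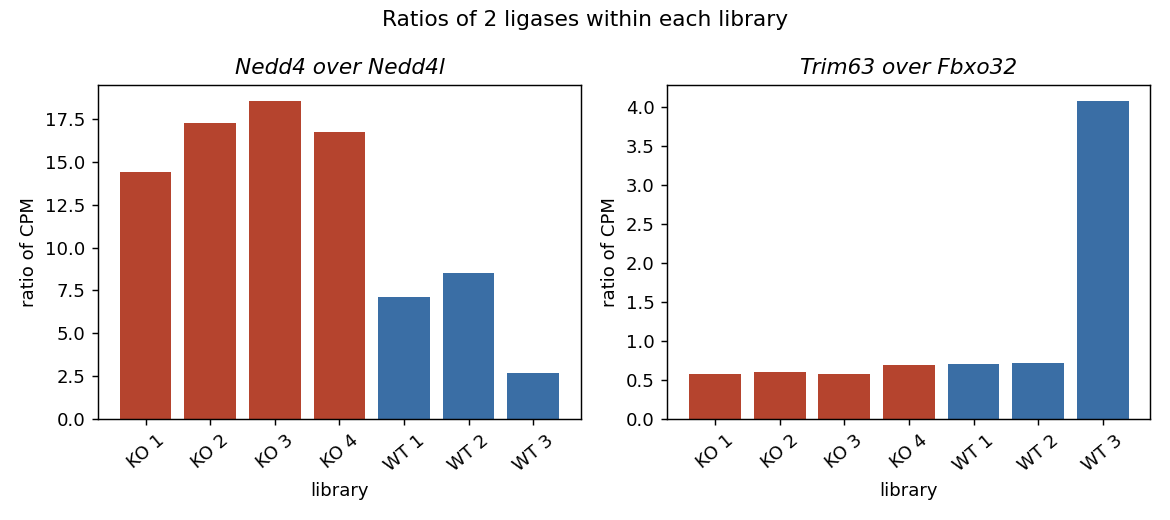
Ratios of CPM between 2 ligases within each library (bars from 0, KO libraries red and left, WT libraries blue and right). Nedd4 over Nedd4l is 14.4 to 18.6 in KO and 2.66 to 8.53 in WT, and Trim63 over Fbxo32 is 0.574 to 0.694 in KO, 0.706 and 0.715 in WT 1 and WT 2, and 4.07 in WT 3.

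Trim63 (ENSMUSG00000028834.13, chr4:134315120-134329629, plus strand, GRCm38), a RING ligase of the sarcomere that acts on thick filament proteins, had 148, 260.3, 178 and 189 CPM in KO, against 212, 205 and 104 CPM in WT. KO 2 was the highest library and WT 3 the lowest, and WT 1 and WT 2 lay inside the KO range. Means were 194 ± 47.6 CPM in KO (SD, n = 4) and 174 ± 60.3 CPM in WT (SD, n = 3). KO minus WT came to 0.16 on the fitted log2 scale (SE 0.28, 95% interval -0.48 to 0.80, edgeR adjusted p 0.764). It turned to -0.10 without WT 3 (95% interval -0.49 to 0.29) and to -0.02 without KO 2, so no direction can be given for Trim63.

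Fbxo32 (ENSMUSG00000022358.6, chr15:58175879-58214932, minus strand, GRCm38), an F-box protein known to act on MyoD and on a translation initiation factor, had 258, 437, 310 and 272 CPM in KO, against 300.3, 286 and 25.6 CPM in WT. As for Trim63, KO 2 was highest, WT 1 and WT 2 fell within the KO range, and WT 3 was below every other library. The counts were 6857, 11008, 8286 and 6620 in KO and 8801, 7629 and 621 in WT. The mean was 319 ± 81.8 CPM in KO (SD, n = 4) and 204 ± 155 CPM in WT (SD, n = 3), so that the WT error was mostly that of 1 library. The log2 fold change of 0.65 had a 95% interval of -0.87 to 2.16 (SE 0.66, edgeR adjusted p 0.6002). Without WT 3 it was 0.13, with an interval of -0.28 to 0.53 (SE 0.18, edgeR adjusted p 0.700). Within each library, Trim63 over Fbxo32 CPM was 0.575, 0.595, 0.574 and 0.694 in KO and 0.706, 0.715 and 4.07 in WT. Apart from WT 3, the pair therefore kept a close ratio, although Trim63 varied by 24.6% and Fbxo32 by 25.6% (coefficient of variation) among the KO libraries and the other 8 ligases by 3.83 to 14.7%. An antisense gene model, Gm15943, shares 186 exon bases with Fbxo32 and had 66, 72, 75 and 66 counts in KO and 39, 42 and 8 counts in WT. The methods of the study name a stranded library kit. Whether the counting used strand is not given in the sources used here, so reads from the shared stretch cannot be assigned with certainty.

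The transcripts and promoters of the ligases were searched for short words tied to miR-486 and to FoxO. A miRNA pairs with its targets chiefly through its seed, bases 2 to 8. The complement of the miR-486-5p seed, GTACAGG, or the related word TACAGGA, which drops the last seed base and adds an A, was looked for on the transcript strand of annotated 3′ UTRs. Of the 10 ligases, 1 held such a word, Fbxo32, while 16.8% of 12567 tested genes with a 3′ UTR held at least 1. Fbxo32 has a 3′ UTR of 5587 bases in its transcript, beside a median of 1383 bases. The word starts at base 1556 of that UTR and is shown in capitals within its 10-base flanks, read from GRCm38 at chr15:58179894-58179920 on the minus strand, because it is the one such word among the 10 genes:
Fbxo32 3′ UTR: ggttggtactGTACAGGcggatggagt
Nedd4l, the ligase that fell in KO, had neither word in the 4942 bases of its annotated 3′ UTR. Promoters came from a RefSeq table of GRCm38.p6, each running 250 bases upstream to 50 bases downstream of a start, and 8 of the ligases matched with 11 promoters (Fbxo32 and Nedd4l did not). The FoxO motif GTAAACA, searched on both strands, was present in 1 of them, that of Trim63, and in 3.65% of all 32851 promoters. The glucocorticoid receptor motif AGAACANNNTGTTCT was in none of the 11 and in 0.00913% of all promoters. Only this full form was searched, not partial forms of it. At so small a share, none among 11 was likely in advance, so the search cannot decide whether these promoters hold receptor sites. The Trim63 match starts 194 bases before the start site and is shown, again with 10-base flanks, because Trim63 is the textbook FoxO-driven ligase. Its capitals mark the motif, which reads as its reverse complement on the gene's strand, and the window is chr4:134314916-134314942 on the plus strand:
Trim63 promoter: agtctgttctTGTTTACgacccccacg
A match is a description of letters and shows neither binding nor pairing.

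Fbxo31 (ENSMUSG00000052934.14, chr8:121549440-121578806, minus strand, GRCm38), an F-box protein known to act on cyclin D1 and counted among FoxO-dependent genes of wasting muscle, had 159, 168, 159 and 153 CPM in KO, against 119, 120.5 and 71.9 CPM in WT. All 4 KO libraries were above all 3 WT libraries, and they were the most closely grouped of any ligase, at 159.5 ± 6.12 CPM (SD, n = 4) in KO and 104 ± 27.6 CPM (SD, n = 3) in WT. With all libraries the log2 fold change was 0.62 (SE 0.19, 95% interval 0.19 to 1.05), and it did not pass the threshold (edgeR adjusted p 0.120). WT 3 widened the WT spread. Without it the log2 fold change was smaller, 0.42 (SE 0.07, 95% interval 0.26 to 0.58), and passed with an edgeR adjusted p of 0.00559. DESeq2 on all 7 libraries also called it, with a log2 fold change of 0.63 and an adjusted p of 0.0357, beside 8% of genes called by DESeq2 in either direction, 3.24% as higher in KO and 4.76% as lower. Without WT 3, 6.15% of genes passed as higher in KO.

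Fbxo21 (SMART), another FoxO-dependent F-box protein, had 11.2, 12.99, 11.7 and 11.0 CPM in KO, against 10.6, 9.12 and 5.68 CPM in WT. The groups did not overlap, but KO 4 and WT 1 differed by little. Its log2 fold change was 0.47 (SE 0.20, 95% interval 0.01 to 0.93, edgeR adjusted p 0.242), and 0.25 without WT 3. Fbxo40, a muscle-restricted F-box protein that acts on the insulin receptor substrate IRS1, had 336, 419.6, 408 and 419 CPM in KO, against 312, 355 and 271 CPM in WT. KO 1 lay between WT 1 and WT 2, and the other KO libraries were above all WT libraries. Its log2 fold change was 0.34 (SE 0.15, 95% interval 0.00 to 0.68, edgeR adjusted p 0.247), and 0.25 without WT 3. Fbxo30 (MUSA1), which BMP signalling is known to restrain, had 14.2, 16.8, 15.9 and 14.4 CPM in KO, against 14.7, 14.9 and 7.04 CPM in WT. Apart from WT 3, all its libraries lay within a narrow range. Its log2 fold change was 0.32 with a 95% interval of -0.23 to 0.88 (edgeR adjusted p 0.476), and 0.05 without WT 3, with an interval of -0.16 to 0.27.

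Asb2, a substrate receptor for cullin 5 ligases that acts on filamins, had 540.3, 616, 597 and 566 CPM in KO, against 555, 574 and 259 CPM in WT. WT 1 and WT 2 lay inside the KO range, and WT 3 was at 46.0% of their mean. Its log2 fold change was 0.33 (SE 0.26, 95% interval -0.27 to 0.92, edgeR adjusted p 0.499), and 0.04 without WT 3, with an interval of -0.14 to 0.23. Cblb, a RING ligase that acts on IRS1 in unloaded muscle and also restrains T cells, had 19.1, 21.02, 25.8 and 19.3 CPM in KO, against 31.8, 21.9 and 15.6 CPM in WT. The WT libraries spanned more than the whole KO range. Its log2 fold change of -0.12 (SE 0.23, 95% interval -0.65 to 0.41, edgeR adjusted p 0.786) was -0.33 without WT 3 and turned to 0.19 without WT 1, so no direction can be given for it.

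**Figure D3:**
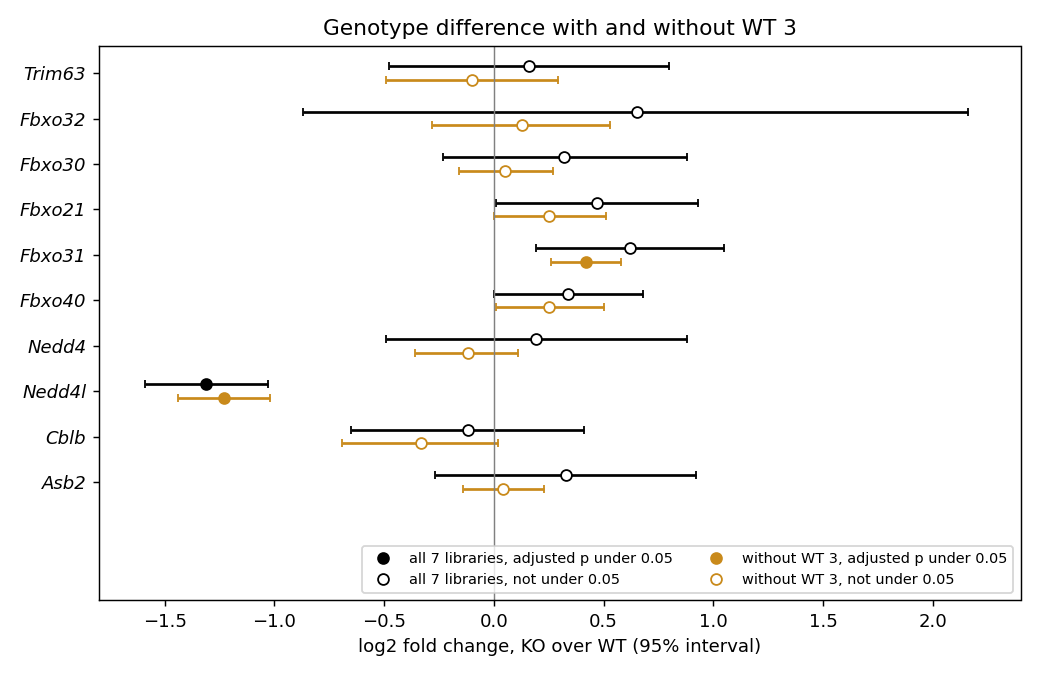
Log2 fold change, KO over WT, of the 10 ligases with 95% intervals from edgeR, with all 7 libraries (black) and without WT 3 (orange). Filled points have an adjusted p under 0.05, which Nedd4l has in both fits (-1.31 and -1.23) and Fbxo31 only without WT 3 (0.42).

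WT 3 was the lowest library for 9 of the 10 ligases, all but Nedd4l. As a share of the mean of WT 1 and WT 2, it had 8.71% of their Fbxo32, 39.7% of Nedd4, 46.0% of Asb2, 47.5% of Fbxo30, 49.98% of Trim63, 57.6% of Fbxo21, 57.9% of Cblb, 60.1% of Fbxo31 and 81.2% of Fbxo40. On the log2 scale (CPM plus 0.5), the difference between WT 3 and the mean of the other pair was -3.50 for Fbxo32, at percentile 0.0571 of all tested genes. The median difference over the 10 ligases was -0.87, beside 0.02 over all genes tested, of which 34.5% were lowest in WT 3. Over all tested genes, the difference moved with summed exon length. Its median was 0.47 over 672 genes under 1000 exon bases and -0.20 over 5730 genes above 5000 exon bases. Over the 9710 genes within the exon length range of the ligases it was -0.10, and 41.2% of them were lowest in WT 3. The summed level of the 10 ligases was 1970 to 2577 CPM in KO, against 2211, 2237 and 1077 CPM in WT 1, WT 2 and WT 3. The part of length, of the mitochondrial share and of non-unique alignment in these low values was not tested. KO 2 was the highest library for 8 ligases.

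**Figure D4:**
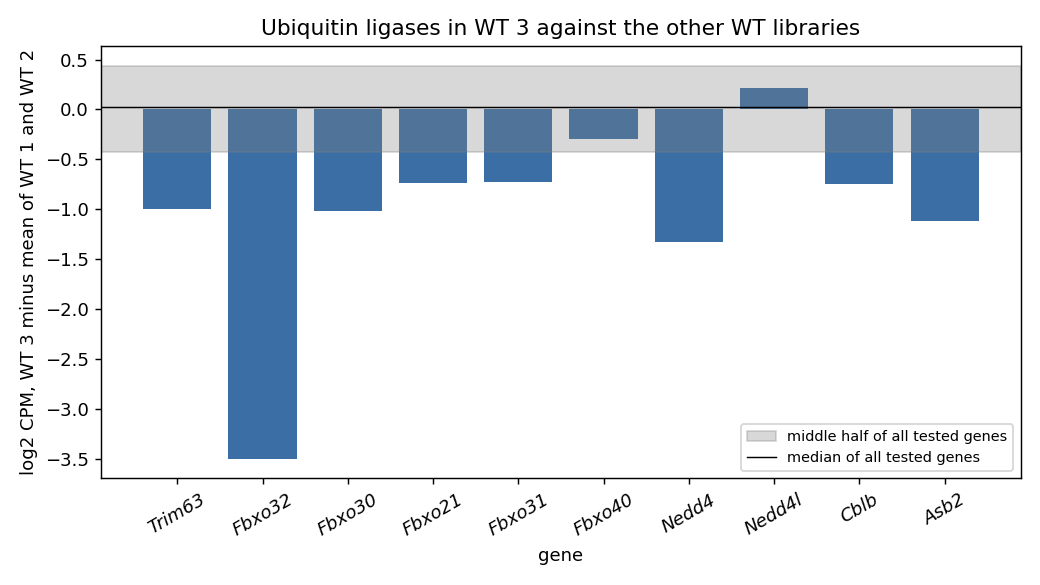
Log2 CPM of each ligase in WT 3 minus the mean of WT 1 and WT 2 (bars from 0), with the middle 50% of all tested genes in grey. Fbxo32 is at -3.50, and Nedd4l, at 0.22, is the one bar above 0.

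Markers of other cells were read for the same libraries. Fibro-adipogenic and tendon markers summed to 308 to 416 CPM in KO and 431 to 435 CPM in WT, and 1 of 8, Col1a1, fell. Endothelial and pericyte markers summed to 471 to 542 CPM in KO and 581 to 756 CPM in WT, and 1 of 8, Kdr, fell. No marker of these lists rose, and over all genes 1.85% passed as lower in KO. Neither sum overlapped between the genotypes, and 22.4% of all single genes did not overlap either. The fibro-adipogenic and tendon sum includes Col1a1, which alone averaged 33.0 CPM in KO and 133 CPM in WT. The part of both lists in the ligase results was not tested. Myeloid and lymphoid markers summed to 31.1 to 52.4 CPM in KO, and to 37.4 to 82.8 CPM in WT with the highest value in WT 3. Of these, Itgam, Cd3e, Cd4 and Cd8a were under 1 CPM in every library. Adipocyte markers summed to 187 to 257 CPM in KO and 191 to 509 CPM in WT, and Schwann cell markers to 35.4 to 62.0 CPM in KO and 40.7 to 63.3 CPM in WT. None of either list passed the test.

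Upstream of the ligases, 3 of 26 regulators of the FoxO, Akt and glucocorticoid pathways rose in KO and none fell, beside 0.964% of all genes as higher in KO and 1.85% as lower, with a median log2 fold change of 0.19 over the list. By DESeq2, 4 were higher and 1 was lower, beside 3.24% and 4.76% of all genes. Foxo1, a transcription factor of fasting that is known to induce Trim63 and Fbxo32, had 39.99, 39.5, 42.1 and 63.4 CPM in KO, against 16.8, 14.98 and 15.02 CPM in WT. The groups were far apart and KO 4 was highest (log2 fold change 1.57, SE 0.19, edgeR adjusted p 0.0129). Klf15, a glucocorticoid-induced factor also known to act on the promoters of both, had 51.2, 50.1, 47.8 and 57.2 CPM in KO, against 17.7, 19.9 and 16.2 CPM in WT (log2 fold change 1.52, SE 0.12, edgeR adjusted p 0.00502). Ppargc1a, a coactivator of mitochondrial genes that is known to restrain FoxO-driven wasting, had 70.5, 71.6, 77.5 and 75.2 CPM in KO, against 48.4, 44.5 and 45.4 CPM in WT (log2 fold change 0.68, SE 0.10, edgeR adjusted p 0.0185). WT 3 was close to the other WT libraries for all 3 of these genes, but they were named for passing a test that favours a small spread. Of the 26 genes of the list, 17 were lowest in WT 3, beside 34.5% of all genes. Ppargc1a lost its call when any 1 library other than WT 1 or WT 3 was left out (edgeR adjusted p 0.0636 to 0.0877), and Foxo1 lost it without KO 3 (edgeR adjusted p 0.0610). Without WT 3, 5 genes of the list rose and 4 fell, beside 6.15% of all genes as higher in KO and 6.55% as lower.

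In the ubiquitin cascade itself, each count is read beside the shares of all genes given above. Of 29 other ubiquitin ligases of muscle, 1 fell (2 by DESeq2), beside 1.85% of all genes (4.76% by DESeq2). The gene called by edgeR was Fbxl22, an F-box protein of the sarcomeric Z-disc, with 1.58, 1.75, 2.32 and 1.64 CPM in KO, against 3.48, 6.76 and 4.98 CPM in WT. The groups did not overlap (log2 fold change -1.47, SE 0.25, edgeR adjusted p 0.0256), although leaving out any 1 library other than WT 1 or WT 3 ended the call (edgeR adjusted p 0.0663 to 0.0953). Without WT 3, 6 of the 29 fell (Trim55, Trim72, Fbxo9, Fbxl22, Fbxo3 and Kbtbd13) and none rose, beside 6.55% of all genes as lower and 6.15% as higher. Among 9 genes of ubiquitin, of the E1 enzymes that activate it and of the related Nedd8 system, none passed by edgeR or by DESeq2, and none had an unadjusted p below 0.05. The same held for 25 E2 conjugating enzymes. Without WT 3, Uba1 fell (edgeR adjusted p 0.0290) and Ube2j1 rose (edgeR adjusted p 0.00787), 1 gene of each list. The smallest p of these lists belonged to Nae1 (33.6 ± 1.30 CPM in KO, n = 4, and 26.3 ± 6.41 CPM in WT, n = 3, SD) and Ube2d3 (286 ± 27.7 CPM in KO and 232 ± 25.8 CPM in WT). Of 14 cullin scaffolds and adaptors with a row, none passed by either tool and 2 had an unadjusted p below 0.05, with Cul7 the smallest (4.45 ± 0.681 CPM in KO and 6.39 ± 1.31 CPM in WT). Without WT 3, 1 of the 14 fell, Cand2 (edgeR adjusted p 0.0373).

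Of 15 tested relatives of Asb2, none passed by either tool and 2 had an unadjusted p below 0.05, with Asb5 the smallest. It had 204, 214, 188 and 191 CPM in KO, against 232, 256 and 340.1 CPM in WT (log2 fold change -0.47, SE 0.16, edgeR adjusted p 0.148), and it was the 1 relative that fell without WT 3 (edgeR adjusted p 0.0493). Of 19 deubiquitinases, which remove ubiquitin, none passed by edgeR, 2 passed by DESeq2 (8% of all genes) and 5 had an unadjusted p below 0.05 (20.2% of all genes). Without WT 3, 2 rose, Usp2 and Otud1, and 2 fell, Uchl1 and Tnfaip3. Uchl1, a deubiquitinase abundant in neurons, came nearest at 1.12 ± 0.133 CPM in KO and 2.79 ± 1.05 CPM in WT, with an edgeR adjusted p of 0.0513. Usp2 was close behind and higher in KO, at 270 ± 34.0 CPM in KO and 157 ± 28.1 CPM in WT (edgeR adjusted p 0.0522). Of 22 reported substrates and partners of the ligases, none passed by edgeR, 3 passed by DESeq2 (8% of all genes) and 6 had an unadjusted p below 0.05 (20.2% of all genes). The smallest p was that of Myl1, an essential light chain of fast myosin, with 5985, 6499, 5811 and 5844 CPM in KO, against 7695, 9829 and 10487 CPM in WT (log2 fold change -0.63, SE 0.17, edgeR adjusted p 0.0846). Without WT 3, 1 of these substrates rose, Des, and 4 fell, Myod1, Vim, Myl1 and Mylpf, beside 6.15% of all genes as higher and 6.55% as lower. List medians lay between -0.13 and 0.19 with all libraries.

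**Figure D5:**
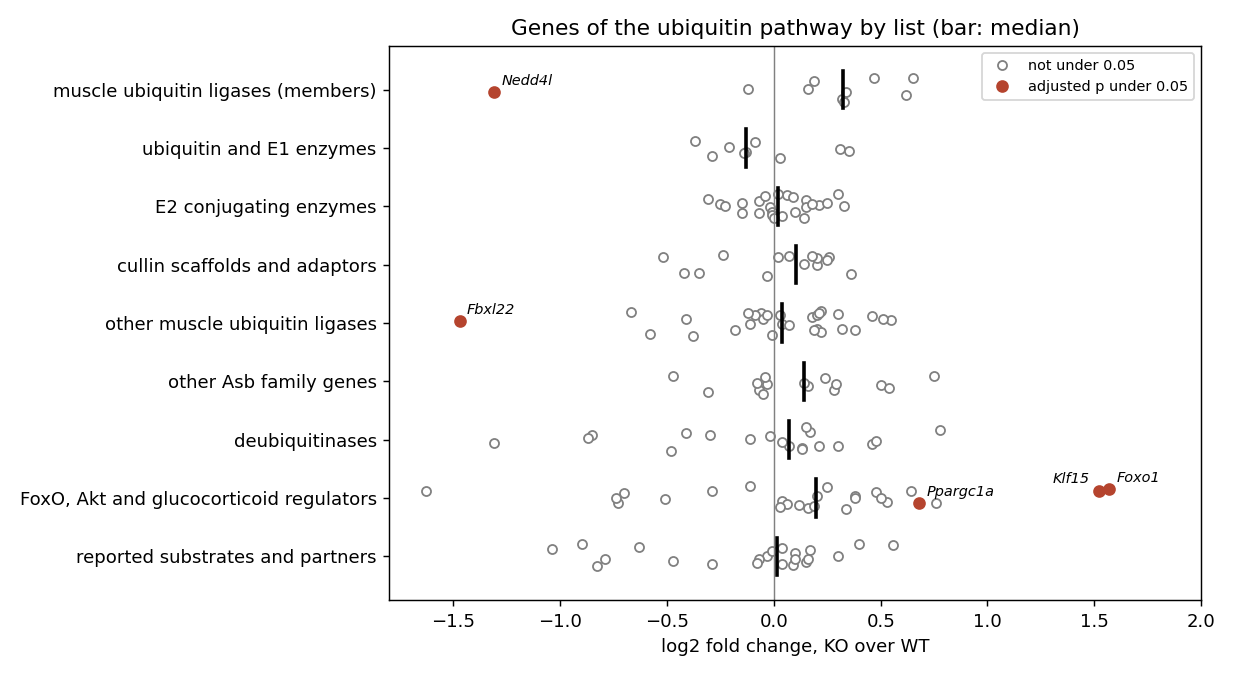
Log2 fold change, KO over WT, of every tested gene of the 10 ligases and of 8 lists of the ubiquitin pathway, with the list median as a bar. Filled red points have an adjusted p under 0.05, and these are Nedd4l, Fbxl22, Ppargc1a, Klf15 and Foxo1.

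Genes with the most similar course over the 7 libraries were sought for Nedd4l, Trim63 and Fbxo32, as the root-mean-square difference of mean-centred log2 CPM among 11267 named genes. The order is a description over libraries of 2 genotypes that share depth and preparation. Because the genes were picked on these same libraries, a fall in KO or a low WT 3 shared with the ligase follows from the choice. For Nedd4l they were Clu (0.144), Rnft2 (0.159) and Hacd1 (0.166), beside a median of 0.685 over all genes. All 3 fell in KO, with log2 fold changes of -1.13, -1.43 and -1.38. For Trim63 they were Tceanc2 (0.109), Slc12a2 (0.112) and Tcf20 (0.114), beside a median of 0.431, and each of them was lowest in WT 3. For Fbxo32 they were Arhgap5 (0.237), Pm20d2 (0.265) and Nadk2 (0.273), beside a median of 1.271. These 3 shared the drop in WT 3, at 3.79, 0.782 and 4.24 CPM there, and none of them passed the genotype test.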

How the data were processed

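The authors deposited whole-number read counts per Ensembl gene, without normalization. Tools listed in the submitters' processing notes are STAR 2.5.2b, HTSeq 0.6.1, CASAVA 1.8.2 and Trim Galore 0.4.2. For these counts, the build, annotation and strand setting were not given in the sources used here. The methods of the study describe Salmon instead, but the table ends with 5 HTSeq summary rows, which were left out. In it, reads without a feature were 3.25 to 4.34% and ambiguous reads 4.04 to 4.44% in each library. The labels name Trizol extraction and the methods another kit with ribosomal depletion, which cannot be settled here. The methods state 4 mice per cohort, and 3 WT libraries were analysed here.

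Of 48795 gene IDs, 48435 matched GENCODE M21 (GRCm38), which gave names, coordinates and exon lengths. Genotype was tested with the quasi-likelihood functions of edgeR 4.0.16 (R 4.3.3) after filterByExpr (minimum count 10) and TMM, with Benjamini-Hochberg adjustment over 14002 genes at 0.05. The script was tested on simulated data. Alternatives were DESeq2 1.42.0, RLE factors, no filter, a mean of at least 1 CPM, a robust fit, mitochondrial genes left out, a replicate block, a fold threshold (1 on the log2 scale, either way), and each library left out in turn. None of 21 library pairs agreed within sampling noise (chi-square). Same-numbered KO and WT libraries did not clearly deviate together, but 3 pairs are too few to exclude a pairing. Their numbers were treated as names of libraries only.

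The ligases and all lists were chosen with earlier results of these data known. Named genes are the ligases, Ank1 and the hairpin row, from each list up to 4 genes past the threshold or else the 1 with the smallest p, and the 3 genes most like Trim63, Fbxo32 and Nedd4l. Genes past the threshold only without WT 3 were named after their values were seen. The lists are ubiquitin and E1 enzymes, E2 conjugating enzymes, cullin scaffolds and adaptors, other muscle ubiquitin ligases, other Asb family genes, deubiquitinases, FoxO, Akt and glucocorticoid regulators, reported substrates and partners, and markers of 6 cell types. A gene of the marker lists is not reported here. Of 17 names in the cullin list, 14 had a row, and the others were second symbols of genes that had one (Skp1a, Elob and Eloc).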

Additional observations from a re-analysis of the deposited data

Results flagged for a closer look

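Among the 4 KO libraries, Fbxo40 had 1 library far from the others, KO 1 at 336.3 CPM, while the other KO libraries had 408 to 419.6 CPM. The gap to the nearest of them was 0.859 of the whole KO range. Only the KO group was large enough for this comparison, and with 10 ligases read, a single flag is of the kind that chance gives now and then.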

How the results depend on the processing

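Over all genes, 394 passed as reported, 1118 with DESeq2 and 235 with a further threshold of 1 on the absolute log2 scale. Leaving out 1 library gave 20 to 1802 (48 without KO 1, 44 without KO 2, 20 without KO 3, 21 without KO 4, 139 without WT 2 and 1802 without WT 3). The number of ligases called was 1 as reported, 2 with DESeq2, and 1 to 2 when 1 library was left out, the 2 being without WT 3. With the replicate block, 0 genes and 0 ligases passed (1568 genes and 2 ligases at an unadjusted p below 0.05), and Nedd4l had -1.32 with an adjusted p of 0.177. Over the same-numbered pairs, correlations of deviations were between -0.31 and 0.26, with 1 of 3 above 0.1. So few pairs cannot decide whether the replicate numbers pair the libraries. Nedd4l passed in 13 of 14 alternatives, the block being the exception, and Fbxo31 in 2 of 14 (DESeq2, and without WT 3). The other 8 ligases passed in 0 of 14. The direction turned for Trim63 without KO 2 (-0.02) and without WT 3 (-0.10), for Nedd4 without WT 3 (-0.12) and for Cblb without WT 1 (0.19). With 1 library left out, the log2 fold changes of these 3 were -0.10 to 0.33, -0.12 to 0.40 and -0.33 to 0.19. Klf15 passed in 13 and Foxo1 in 12 of 14, Foxo1 losing its call without KO 3 (edgeR adjusted p 0.0610) and both with the block, while Fbxl22 and Ppargc1a passed in 8 each. With 3 WT libraries, of which 1 stood apart, the intervals of Trim63, Fbxo32, Nedd4 and Asb2 were too wide to show small changes.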
